A study of Mus musculus with 4 samples.

Results

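The genes described here are 41 genes of the replication checkpoint and of the repair of stalled replication forks. They were chosen by name from the deposited gene table of 2D- and 3D-cultured cells, which lists 31828 genes, and all 41 were found there. They were grouped by role into 17 genes of ATR/ATM signalling, 13 of homologous recombination, 7 of the Fanconi anaemia pathway and 4 of fork remodelling. The cells were AML12, a line of immortalised mouse hepatocytes derived from a mouse that carried a transgene for human transforming growth factor alpha. Cells were grown as a flat layer in 10 cm dishes (2D, 2 libraries) or inside Matrigel, a gel of basement membrane proteins (3D, 2 libraries). All 4 libraries came from the same line, from medium with serum, dexamethasone, insulin, transferrin and selenium, and from cells that had been given 1 mM hydroxyurea. The paper used the drug to arrest cells of both cultures at the G1/S boundary and checked that state by flow cytometry. The drug was left on for 24 h in 2D and, after a first day of growth in Matrigel, for 36 h in 3D. The paper chose unlike times because the cell cycle differed in length between the cultures. Culture and length of treatment therefore cannot be told apart in any value below, and there was no library of cells without the drug.

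Hydroxyurea inhibits ribonucleotide reductase and so drains the pool of DNA building blocks, and replication forks stall. At a stalled fork, unwound DNA coated with replication protein A recruits the kinase ATR through its partner ATRIP, and ATR, once activated, switches on the checkpoint kinase CHK1, which holds back further origins and entry into mitosis. ATM is the related kinase that answers to DNA breaks, which form when stalled forks collapse. Homologous recombination and the Fanconi anaemia proteins protect and restart such forks, and a few DNA translocases and helicases remodel them. Many of these genes are known to be transcribed mainly around S phase, under the E2F transcription factors.

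Levels are given in TPM, transcript abundances that are corrected for length and scaled to a fixed total within a library, so that sequencing depth is unknown and no counting interval can be given. Between 13891 and 14256 genes reached 1 TPM in a library. Across the 14116 genes with a mean of at least 1 TPM, log2(TPM + 1) correlated at 0.991 within 2D, at 0.992 within 3D and at 0.951 to 0.952 between cultures. The labels do not say whether replicates were separate cultures, so the p-values measure the spread between these libraries, which may be technical. Of 14 markers of leukocytes, endothelial cells and mesenchymal cells, 12 lay below 1 TPM in every library, all 4 endothelial markers among them. The exceptions were Cd68, at 18.3 to 25.5 TPM, and Des, at 17.3 to 36.1 TPM. The summed level of the 6 mesenchymal markers was 35.0 and 37.6 TPM in 2D and 19.9 and 18.8 TPM in 3D, that of the 4 leukocyte markers 19.4 and 18.5 TPM in 2D and 26.4 and 22.2 TPM in 3D, and their part in the results was not tested. Of 9 hepatocyte markers that passed the filter, 6 were higher in 3D and 3 lower, namely Krt18, Krt8 and Apoe (log2 fold change -0.91, -0.82 and -0.46). Krt18 and Krt8, the markers with the highest levels, fell from 6286 and 6128 TPM to 3275 and 3320 TPM and from 3242 and 3199 TPM to 1795 and 1847 TPM. Albumin (Alb) was at 0.819 and 1.20 TPM in 2D and at 12.7 and 10.0 TPM in 3D, and Serpina1a did not exceed 0.0768 TPM in any library.

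Most of the 41 genes were at a lower level in 3D-cultured cells. All 41 passed the filter on low values, and 26 of them (63.4%) were down-regulated in 3D at an adjusted p under 0.05, whereas 3 (7.32%) were up-regulated, namely Rad9a, Usp1 and Smarcal1, and 12 did not pass the test. The same rule called 27.1% of all genes tested lower and 23.4% higher. In either direction it called 29 of the 41 (70.7%) and 50.5% of all genes. The test was limma on log2(TPM + 1), two-sided, with adjustment over all 14116 genes. Both 3D libraries lay below both 2D libraries for 32 of the 41 genes (78.0%), against 41.6% of all genes tested. They lay above both for 4 of the 41, the 3 up-regulated genes and Etaa1, against 5067 of the 14116 genes tested. The median log2 fold change, as 3D minus 2D on the log2(TPM + 1) scale, was -0.48 over the 41 genes and -0.04 over all genes. The changes were small to moderate: only Mdc1 and Timeless were down-regulated by more than 1 on the log2 scale, a size passed by 3.83% of all genes. In these bulk libraries, fewer cells that express a gene and less RNA of it per cell cannot be told apart.

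**Figure D1:**
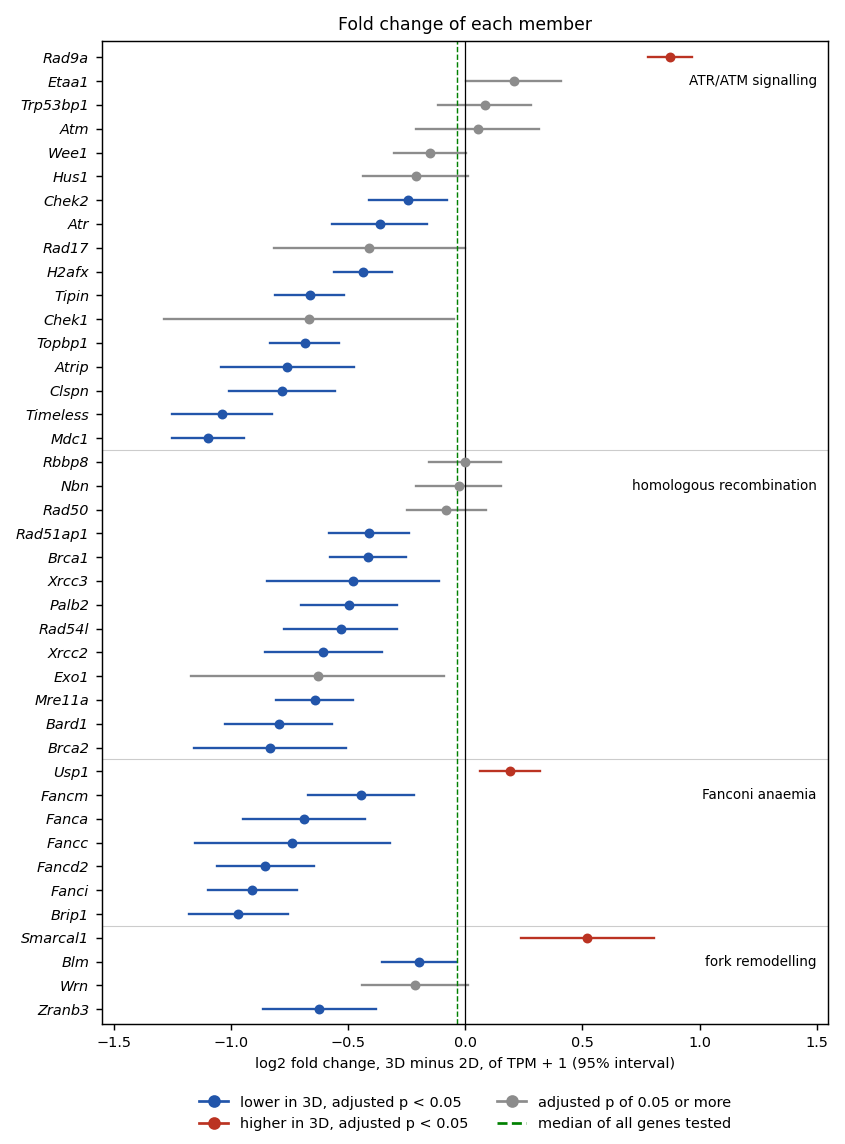
Log2 fold change (3D minus 2D, of TPM + 1) of each of the 41 genes, ordered within its role group, with bars for the 95% interval from limma and colours for the call. Blue points, lower in 3D, fill most of the left side down to -1.10 for Mdc1, and the 3 red points on the right are Rad9a at 0.87, Smarcal1 at 0.52 and Usp1 at 0.19.

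The mean of log2(TPM + 1) over the 7 Fanconi anaemia genes was 4.09 and 4.16 in 2D and 3.45 and 3.55 in 3D. Over the 13 homologous recombination genes it was 4.35 and 4.36 in 2D and 3.88 and 3.92 in 3D, and over the 17 genes of ATR/ATM signalling 5.00 and 5.05 in 2D and 4.67 and 4.64 in 3D. Over the 4 fork remodelling genes it was 3.99 and 4.11 in 2D and 3.97 and 3.88 in 3D. The 3D libraries were lower in each group, by the most for the Fanconi anaemia genes and by little for fork remodelling. No test was made between the groups.

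**Figure D2:**
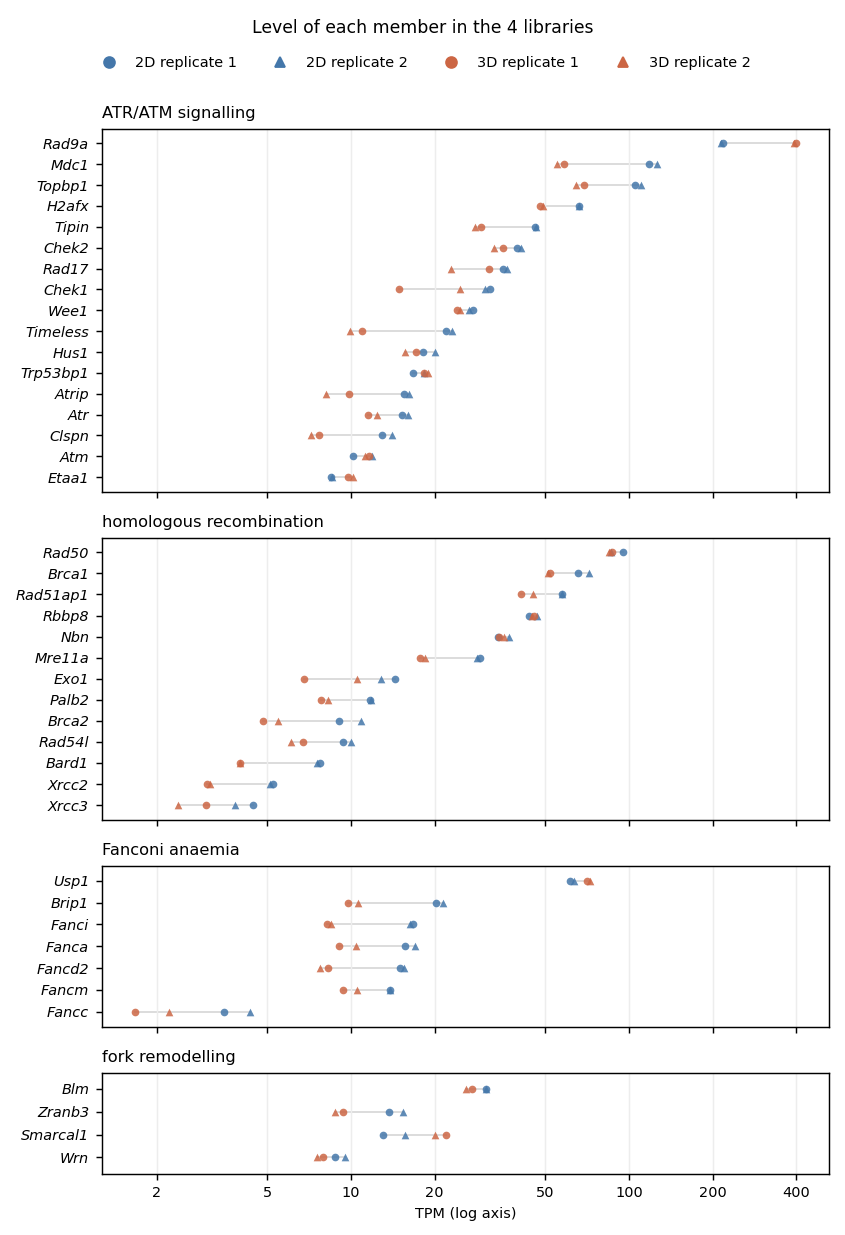
Level in TPM (log axis) of each of the 41 genes in each of the 4 libraries, with 2D in blue and 3D in orange, circles for replicate 1 and triangles for replicate 2, and a grey line over the range. Rad9a, the gene with the highest level, lies near 400 TPM in both 3D libraries, Fancc and Xrcc3 are the lowest, and the 3D points of Chek1, Exo1 and Rad17 are far apart.

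Within ATR/ATM signalling, the kinase ATR and its partner were both down-regulated in 3D, while ATM did not pass the test. Atr was at 15.3 and 16.1 TPM in 2D and at 11.6 and 12.4 TPM in 3D. Atrip, which brings ATR to coated DNA, was at 15.6 and 16.2 TPM in 2D and at 9.85 and 8.15 TPM in 3D. Neither gene overlapped between the cultures. Atr fell by 0.36 on the log2 scale (SE 0.08, limma adjusted p = 0.0174) and Atrip fell by 0.76 (SE 0.11, limma adjusted p = 0.00536). Atm was at 10.2 and 11.9 TPM in 2D and at 11.7 and 11.2 TPM in 3D, which overlapped, with a 95% interval of the difference from -0.21 to 0.31. The call for Atr was kept without 2D replicate 1 (limma adjusted p = 0.0401) and lost without 2D replicate 2 (0.0632), without 3D replicate 1 (0.0893) and without 3D replicate 2 (0.0538). Trex1, the exonuclease gene behind Atrip on the same strand, shared 16.0% of the exonic bases of Atrip and was at 1.41 to 2.45 TPM.

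The clamp that marks the fork for activation of ATR is made of RAD9, HUS1 and RAD1 and is loaded by RAD17, and of the 3 genes described here Rad9a was the one that passed the test. Rad9a was at 217 and 214 TPM in 2D and at 400 and 392 TPM in 3D. It was up-regulated 1.84-fold by mean TPM (log2 fold change 0.87, SE 0.04, limma adjusted p = 0.000317), the highest of the 41 genes. Both 3D libraries lay far above both 2D libraries. Rad9a lies at chr19:4195198-4201603 on the minus strand (GRCm38), and 9.53% of its exonic bases are shared with Ppp1ca, a phosphatase gene on the opposite strand. Ppp1ca was at 763 and 760 TPM in 2D and at 699 and 687 TPM in 3D and moved the other way (log2 fold change -0.14, limma adjusted p = 0.0223). Hus1 was at 18.2 and 20.01 TPM in 2D and at 17.1 and 15.6 TPM in 3D and did not pass the test, with a 95% interval from -0.44 to 0.01. Rad17 was at 35.4 and 36.5 TPM in 2D and at 31.4 and 22.9 TPM in 3D, and the size of its change depended on the library kept. Its log2 fold change was -0.41 (limma adjusted p = 0.0867) with all libraries. It was -0.63 without 3D replicate 1 and -0.19 without 3D replicate 2.

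Of the genes of the ATR activators, Topbp1 was down-regulated and Etaa1 did not pass the test. Topbp1, whose protein binds the clamp and switches ATR on, was at 106 and 111 TPM in 2D and at 69.1 and 64.7 TPM in 3D (log2 fold change -0.68, SE 0.06, limma adjusted p = 0.00122). Etaa1, the gene of the other activator, was at 8.46 and 8.58 TPM in 2D and at 9.80 and 10.2 TPM in 3D. The groups of Etaa1 did not overlap, but it did not pass the test (log2 fold change 0.21, 95% interval 0.004 to 0.41, limma adjusted p = 0.0825).

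The mediators that travel with the fork were all down-regulated. Clspn, for claspin, which presents CHK1 to ATR, was at 12.9 and 14.1 TPM in 2D and at 7.66 and 7.22 TPM in 3D (log2 fold change -0.78, SE 0.09, limma adjusted p = 0.00270). Timeless and Tipin encode the fork protection complex that keeps helicase and polymerase together. Timeless was at 22.003 and 23.1 TPM in 2D and at 11.0 and 9.96 TPM in 3D (log2 fold change -1.04, SE 0.08, limma adjusted p = 0.00108). Tipin was at 45.9 and 46.2 TPM in 2D and at 29.4 and 28.0 TPM in 3D (log2 fold change -0.66, SE 0.06, limma adjusted p = 0.00132). Both genes were without overlap between the cultures, and the larger log2 fold change was that of Timeless.

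The effector kinases were less clear. Chek1, which encodes the main target of ATR, was at 31.7 and 30.5 TPM in 2D and at 14.9 and 24.7 TPM in 3D. Both 3D libraries were lower, but they differed from each other by 0.69 on the log2 scale, a gap that 1.47% of the 9445 genes with a mean of at least 10 TPM reached. Chek1 did not pass the test (log2 fold change -0.67, 95% interval -1.28 to -0.05, limma adjusted p = 0.0723). Its log2 fold change was -1.01 without 3D replicate 2 and -0.32 without 3D replicate 1. Chek2, the target of ATM, was at 39.6 and 41.1 TPM in 2D and at 35.1 and 32.7 TPM in 3D (log2 fold change -0.24, SE 0.06, limma adjusted p = 0.0307). The call of Chek2 was lost with the replicate number as a block (limma adjusted p = 0.0646) and without the filter on low values (0.0725). That call was lost when any library was left out (limma adjusted p from 0.0600 without 3D replicate 1 to 0.140 without 3D replicate 2, with 0.0636 and 0.0997 without 2D replicate 1 and 2). Wee1, whose kinase restrains entry into mitosis, was at 27.5 and 26.7 TPM in 2D and at 24.1 and 24.6 TPM in 3D and did not pass (95% interval -0.31 to 0.005).

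Among the proteins that mark damaged chromatin, MDC1 reads the phosphorylated histone H2AX and gathers repair factors, and Mdc1 had the lowest log2 fold change of the 41 genes. Mdc1 (chr17:35841515-35859670, plus strand) was at 118 and 126 TPM in 2D and at 58.3 and 54.9 TPM in 3D. It fell by 1.10 on the log2 scale (SE 0.06, limma adjusted p = 0.000494), and its mean TPM in 3D was 0.463 times that in 2D. H2afx, the gene of the histone itself, was at 66.0 and 66.1 TPM in 2D and at 48.0 and 49.1 TPM in 3D (log2 fold change -0.44, SE 0.05, limma adjusted p = 0.00244). Trp53bp1, which encodes the factor that steers breaks away from resection, was at 16.8 and 18.4 TPM in 2D and at 18.3 and 19.0 TPM in 3D. Its groups overlapped (95% interval -0.12 to 0.28), and 15.04% of its exonic bases are shared with Tubgcp4 on the opposite strand.

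In homologous recombination, 9 of 13 genes (69.2%) were down-regulated in 3D and none was up-regulated, against 27.1% and 23.4% of all genes tested. The MRE11, RAD50 and NBN proteins form the complex that senses and trims broken ends, and of their genes only Mre11a passed the test. Mre11a was at 29.1 and 28.5 TPM in 2D and at 17.7 and 18.5 TPM in 3D (log2 fold change -0.64, SE 0.06, limma adjusted p = 0.00194). Rad50 was at 95.4 and 86.1 TPM in 2D and at 86.9 and 84.5 TPM in 3D, and Nbn was at 33.9 and 37.2 TPM in 2D and at 34.1 and 35.5 TPM in 3D. Both overlapped between the cultures, with 95% intervals of the log2 difference from -0.25 to 0.09 for Rad50 and from -0.21 to 0.15 for Nbn. Rbbp8, for the resection factor CtIP, was at 43.7 and 46.8 TPM in 2D and at 45.6 and 44.9 TPM in 3D, so that the 3D values lay within those of 2D (95% interval -0.15 to 0.15). Exo1, for the nuclease of long resection, was at 14.5 and 12.9 TPM in 2D and at 6.78 and 10.5 TPM in 3D. Its 3D libraries differed by 0.56 on the log2 scale, a gap reached by 2.20% of the genes with a mean of at least 10 TPM, and it did not pass the test (log2 fold change -0.63, 95% interval -1.17 to -0.09, limma adjusted p = 0.0589). The log2 fold change of Exo1 was -0.91 without 3D replicate 2 and -0.35 without 3D replicate 1.

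Brca1, Bard1, Brca2 and Palb2, whose proteins bind each other, were down-regulated. Brca1 was at 65.9 and 72.1 TPM in 2D and at 51.8 and 51.1 TPM in 3D (log2 fold change -0.41, SE 0.06, limma adjusted p = 0.00624). Bard1, whose protein binds BRCA1 to form a ubiquitin ligase, was at 7.74 and 7.58 TPM in 2D and at 3.996 and 3.98 TPM in 3D (log2 fold change -0.80, SE 0.09, limma adjusted p = 0.00259). Neither gene overlapped between the cultures, and the replicates of Bard1 lay close together. Brca2, which encodes a central mediator of recombination, was at 9.07 and 10.9 TPM in 2D and at 4.85 and 5.48 TPM in 3D (log2 fold change -0.83, SE 0.12, limma adjusted p = 0.00599). Palb2, for the protein that joins BRCA1 and BRCA2, was at 11.7 and 11.8 TPM in 2D and at 7.82 and 8.30 TPM in 3D (log2 fold change -0.50, SE 0.08, limma adjusted p = 0.00731).

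Rad51ap1, Rad54l, Xrcc2 and Xrcc3 were down-regulated as well, some of them at low levels. Rad51ap1, for a protein that stimulates strand pairing, was at 57.6 and 57.3 TPM in 2D and at 40.95 and 45.0 TPM in 3D (log2 fold change -0.41, limma adjusted p = 0.00709). Rad54l, for a DNA translocase of recombination, was at 9.40 and 10.0 TPM in 2D and at 6.71 and 6.11 TPM in 3D (log2 fold change -0.53, limma adjusted p = 0.00940). Xrcc2 and Xrcc3, which encode further recombination factors, were among the genes with the lowest levels: Xrcc2 was at 5.23 and 5.14 TPM in 2D and at 3.03 and 3.10 TPM in 3D (log2 fold change -0.61, limma adjusted p = 0.00715). Xrcc3 was at 4.46 and 3.84 TPM in 2D and at 3.01 and 2.39 TPM in 3D (log2 fold change -0.48, limma adjusted p = 0.0431). With all libraries, Xrcc3 did not pass after median centring (limma adjusted p = 0.0505), after quantile normalization (0.0539) or without the filter on low values (0.0915). Its call was lost without any of the libraries, with limma adjusted p of 0.152 and 0.0715 without 2D replicate 1 and 2 and of 0.0600 and 0.162 without 3D replicate 1 and 2. The call of Rad54l, which shares 15.4% of its exonic bases with Lrrc41 on the opposite strand, was lost without 3D replicate 2 (limma adjusted p = 0.0521).

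All 7 Fanconi anaemia genes passed the test, 6 of them lower in 3D, against 50.5% of all genes tested called and 27.1% called lower. Of 13 further genes of this pathway outside the 41, 4 were called (30.8%), 3 of them lower. FANCM recognises the blocked fork, and Fancm was at 13.8 and 13.9 TPM in 2D and at 9.35 and 10.5 TPM in 3D. FANCA and FANCC belong to the core ubiquitin ligase. Fanca was at 15.6 and 17.0 TPM in 2D and at 9.07 and 10.4 TPM in 3D, and Fancc, the lowest of the 41 genes, was at 3.49 and 4.32 TPM in 2D and at 1.67 and 2.22 TPM in 3D. None of the 3 overlapped between the cultures, and their log2 fold changes were -0.44 for Fancm, -0.69 for Fanca and -0.74 for Fancc (limma adjusted p = 0.0135, 0.00556 and 0.0180). Fancd2 and Fanci encode the pair of proteins that the core marks with ubiquitin. Fancd2 was at 15.1 and 15.5 TPM in 2D and at 8.30 and 7.73 TPM in 3D (log2 fold change -0.85, SE 0.08, limma adjusted p = 0.00166). Fanci was at 16.7 and 16.4 TPM in 2D and at 8.18 and 8.51 TPM in 3D (log2 fold change -0.91, SE 0.07, limma adjusted p = 0.00117). Fanci shares 16.0% of its exonic bases with Polg on the opposite strand, and Fanca 10.5% with Zfp276. Brip1, for a helicase that binds BRCA1, was at 20.3 and 21.5 TPM in 2D and at 9.75 and 10.6 TPM in 3D (log2 fold change -0.97, SE 0.08, limma adjusted p = 0.00128).

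Usp1, which encodes the enzyme that removes ubiquitin from FANCD2, went the other way. It was at 61.4 and 63.6 TPM in 2D and at 70.4 and 72.5 TPM in 3D, a small increase without overlap (log2 fold change 0.19, SE 0.05, limma adjusted p = 0.0295). With all libraries, Usp1 did not pass with a constant prior variance (limma adjusted p = 0.0602) or without the filter on low values (0.0701). The call of Usp1 was lost without 2D replicate 1 (limma adjusted p = 0.0858), without 3D replicate 1 (0.0944) and without 3D replicate 2 (0.145), as well as with the replicate number as a block (0.0633). Fancc lost its call without 2D replicate 2 (limma adjusted p = 0.0723) and without 3D replicate 1 (0.0739), and Fancm without 3D replicate 1 (0.0652). Without 3D replicate 1, fewer of the 7 genes were called, and so were fewer of all genes tested.

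Of the 4 fork remodelling genes, the translocases SMARCAL1 and ZRANB3, which both reverse stalled forks, were encoded by genes that moved in opposite directions. Smarcal1 (chr1:72583251-72633134, plus strand) was at 13.1 and 15.6 TPM in 2D and at 21.96 and 20.01 TPM in 3D (log2 fold change 0.52, SE 0.11, limma adjusted p = 0.0163). Zranb3 was at 13.7 and 15.4 TPM in 2D and at 9.34 and 8.796 TPM in 3D (log2 fold change -0.62, SE 0.09, limma adjusted p = 0.00585). The values of both genes overlapped each other in 2D and did not in 3D. Blm, a helicase that resolves recombination intermediates, was at 30.7 and 30.6 TPM in 2D and at 27.4 and 25.9 TPM in 3D, just within the threshold (log2 fold change -0.20, limma adjusted p = 0.0499). With all libraries, Blm did not pass after median centring (limma adjusted p = 0.0601) or rescaling without mitochondrial and the 20 highest genes (0.0727). Nor did it pass with a constant prior variance (0.0621) or without the filter on low values (0.108). The related helicase gene Wrn was at 8.78 and 9.49 TPM in 2D and at 7.91 and 7.55 TPM in 3D and did not pass (95% interval -0.44 to 0.01). Without 3D replicate 1, 1 of the 4 genes was called, since Smarcal1 (limma adjusted p = 0.0793) and Blm (0.102) were lost. Blm was also lost without 2D replicate 1 (0.124), 2D replicate 2 (0.115) or 3D replicate 2 (0.212), and with the replicate block (0.1005).

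Ratios between members whose proteins work together were taken within each library, where the scaling of the library cancels. No test was made on them, since the smallest p of an exact permutation test with 2 libraries a culture is 0.3333. Of 12 ratios, 6 were lower in both 3D libraries, 4 were higher and 2 overlapped. Of the 14116 single genes tested, 3174 overlapped between the cultures, and the share among other pairs of genes was not computed. The ratio of Fancd2 to Usp1 changed the most, from 0.245 and 0.244 in 2D to 0.118 and 0.107 in 3D, a difference of -1.12 on the log2 scale. Topbp1 to Etaa1 went from 12.5 and 12.9 to 7.06 and 6.34 (-0.92). Both of these set a down-regulated gene against a partner that was not lower.

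Several of the other RNA ratios, between genes of a complex or between other partners, also lay apart in the cultures, which was not tested. Nbn to Mre11a went from 1.16 and 1.303 in 2D to 1.92 and 1.92 in 3D (difference 0.64 on the log2 scale), and Rad50 to Mre11a from 3.27 and 3.02 to 4.91 and 4.56 (0.59). Brca1 to Bard1 went from 8.51 and 9.52 to 12.97 and 12.8 (0.52), and Atr to Atrip from 0.980 and 0.997 to 1.18 and 1.52 (0.43). In these 4 ratios the second gene was the more strongly lowered. Lower ratios in 3D were found for Timeless to Tipin (-0.43), Brca2 to Palb2 (-0.40), Atr to Atm (-0.45) and Brca1 to Trp53bp1 (-0.51). Fancd2 to Fanci overlapped, at 0.902 and 0.946 in 2D and at 1.01 and 0.908 in 3D, and so did Chek1 to Chek2, because 3D replicate 2 was at 0.757 against 0.801 and 0.743 in 2D.

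**Figure D3:**
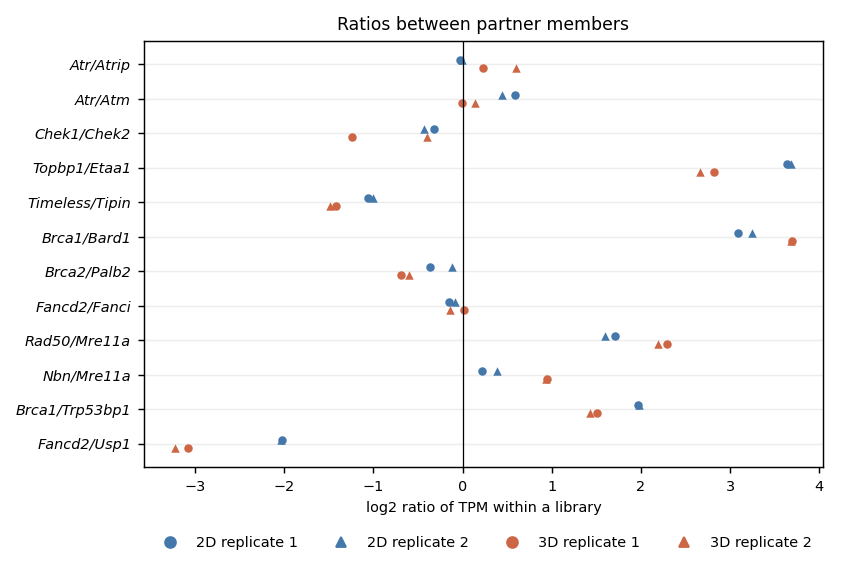
Log2 ratio of the TPM of 2 members within each of the 4 libraries, with 2D in blue and 3D in orange and a symbol for each replicate. Fancd2/Usp1 and Topbp1/Etaa1 show the widest gaps between cultures (-1.12 and -0.92), while Fancd2/Fanci and Chek1/Chek2 overlap.

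Other genes of the same pathways, were taken from a list of 71. Of these, 70 were in the table and 69 passed the filter, and 33 (47.8%) were down-regulated and 3 (4.35%) up-regulated, with a median log2 fold change of -0.24, while 33 did not pass the test. Over all genes tested the shares were 27.1% and 23.4%. By role, 9 of 17 further genes of ATR/ATM signalling were down-regulated and 1 up-regulated, 13 and 1 of 26 in homologous recombination, 3 and 1 of 13 in the Fanconi anaemia pathway and 8 and 0 of 13 in fork remodelling. The Fanconi anaemia genes outside the 41 were thus called in 4 of 13 cases (30.8%), against 50.5% of all genes tested. Of the 3 with the highest levels, Babam1, for a subunit of a BRCA1 complex, was at 235 and 233 TPM in 2D and at 186 and 188 TPM in 3D (log2 fold change -0.32, limma adjusted p = 0.00267). Swi5, which acts in strand exchange, had a log2 fold change of -0.21 and Ercc1, a nuclease subunit, of -0.17, and neither passed (limma adjusted p = 0.229 and 0.0602). Without 3D replicate 1, 21 of the 69 genes were called instead of 36, and 4720 of all genes instead of 7122. The genes of replication protein A, chosen after their values were seen, had log2 fold changes of -0.38 for Rpa1, -0.51 for Rpa2 and -0.78 for Rpa3 (limma adjusted p = 0.00354, 0.00325 and 0.00156).

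Lists of other repair pathways were set beside the same shares of all genes, 27.1% lower and 23.4% higher. In non-homologous end joining, 2 of 10 genes (20%) were lower and 1 (10%) higher, with a median log2 fold change of -0.03, and 1 gene was left without 2D replicate 2, without 3D replicate 1 or without 3D replicate 2. In nucleotide excision repair, 6 of 18 (33.3%) were lower and 3 (16.7%) higher (median -0.03). In base excision repair, 8 of 19 (42.1%) were lower and 4 (21.1%) higher (median -0.35), and 7 in all were called without 3D replicate 2. Of the nucleotide excision repair genes with the highest levels, Ddb1, for a damage sensor, was at 679 and 707 TPM in 2D and at 560 and 553 TPM in 3D (log2 fold change -0.32, limma adjusted p = 0.00306). Gtf2h1, for a subunit of the repair factor TFIIH, was up-regulated from 107 and 109 TPM to 189 and 188 TPM (log2 fold change 0.80, limma adjusted p = 0.000447). Rad23b, for a damage recognition factor, overlapped between the cultures and did not pass (log2 fold change -0.03, limma adjusted p = 0.847).

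Cell cycle genes were lower in 3D too. Of 14 S phase genes, 12 (85.7%) were down-regulated and none up-regulated (median log2 fold change -0.61), and the same counts held for 14 G2/M genes (median -0.61). Of all genes tested, 27.1% were lower and 23.4% higher. Chosen after their values were seen, Mcm7, for a subunit of the replicative helicase, was at 239 and 200 TPM in 2D and at 156 and 158 TPM in 3D, and Pcna, for the sliding clamp, was at 198 and 185 TPM in 2D and at 153 and 164 TPM in 3D. Ube2c, for a ubiquitin-conjugating enzyme of mitotic exit, was at 733 and 731 TPM in 2D and at 279 and 292 TPM in 3D (log2 fold change -1.36, limma adjusted p = 0.000215). The part of the share of cycling cells in the levels of the 41 genes was not tested. Of 12 genes known to be switched on by p53, 5 (41.7%) were up-regulated and 3 (25%) down-regulated (median 0.05), against 23.4% and 27.1% of all genes tested. The CDK inhibitor gene Cdkn1a was at 2805 and 2759 TPM in 2D and at 3364 and 3323 TPM in 3D (log2 fold change 0.27, limma adjusted p = 0.00259), while Ccng1 and Mdm2 did not pass.

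**Figure D4:**
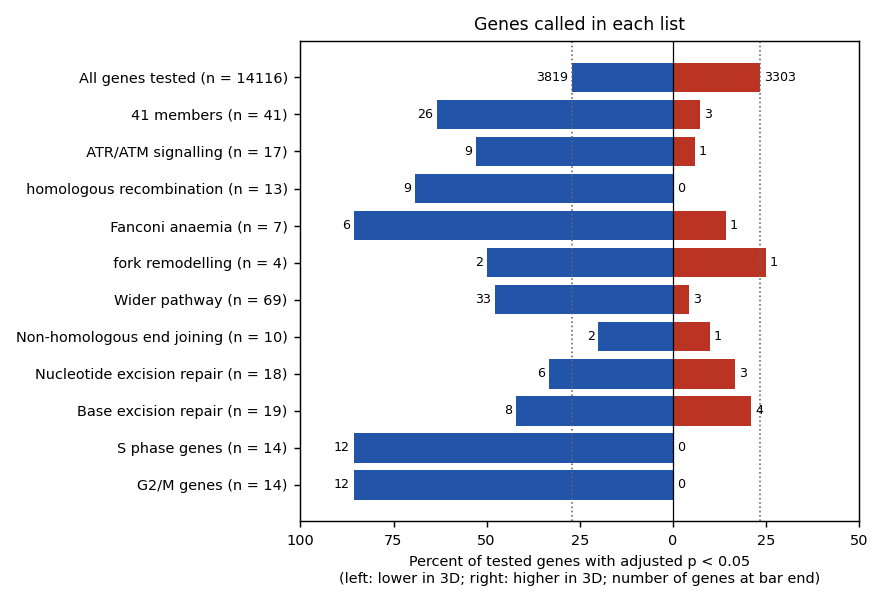
Percent of tested genes of each list called lower (left, blue) or higher (right, red) in 3D at an adjusted p under 0.05, with the number of genes at the end of each bar and dotted lines at the shares of all genes tested (27.1% and 23.4%). The bars for the 41 genes, their 4 groups and the 2 cell cycle lists reach further left than the dotted line, and so do those for the wider pathway (47.8%), base excision repair (42.1%) and nucleotide excision repair (33.3%), while non-homologous end joining (20%) does not.

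Promoter sequences were read for the E2F motif, since many of these genes are known E2F targets. RefSeq windows of 250 bases before and 50 after the start (GRCm38.p6) were at hand for 29 of the 41 genes. For E2F, any of the letters TTCCCGC, or alternatively TTGGCGC, or alternatively TTCGCGC were searched on both strands. The CCAAT box was searched as CCAAT itself, on both strands. The cell cycle homology region (CHR) was searched as TTTGAA on both strands. A CCAAT match on the other strand can share bases with an E2F match. An E2F match was found in 13 of the 29 (44.8%), against 8.07% of all 32851 promoters and 16.8% of the 9844 genes tested that had a window. Shares of genes count a match in any promoter of the gene, whereas shares of all promoters count each promoter, so that the units differ. It was present in 11 of 22 down-regulated genes, in 2 of 6 that did not pass and in 0 of 1 up-regulated gene. A CCAAT match was found in 19 of the 29 (65.5%), against 37.4% of all promoters and 43.1% of the genes tested, and TTTGAA in 4 (13.8%), against 17.9% and 14.5%. A match is a run of letters and says nothing on binding.

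The whole stretch before the start is shown for Mdc1, which had the lowest log2 fold change and has 2 E2F matches there, and for Smarcal1, the up-regulated gene with a window, which has none. Capitals mark the E2F letters, and each line reads 5′ to 3′ on the strand of the gene. Mdc1 is from chr17:35841248-35841497 and Smarcal1 from chr1:72583001-72583250, both on the plus strand.
Mdc1: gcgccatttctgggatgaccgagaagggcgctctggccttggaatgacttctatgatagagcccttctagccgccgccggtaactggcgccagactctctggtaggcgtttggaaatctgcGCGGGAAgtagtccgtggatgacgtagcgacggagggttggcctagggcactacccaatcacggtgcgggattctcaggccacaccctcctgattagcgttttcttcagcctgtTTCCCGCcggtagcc
Smarcal1: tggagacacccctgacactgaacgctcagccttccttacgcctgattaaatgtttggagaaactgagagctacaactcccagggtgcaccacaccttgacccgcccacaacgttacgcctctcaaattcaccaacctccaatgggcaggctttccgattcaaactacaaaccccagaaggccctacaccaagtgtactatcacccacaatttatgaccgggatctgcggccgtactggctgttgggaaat

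The other 5 genes with an E2F match before the start were all down-regulated, but so were 22 of the 29 genes with a window. Atm and Chek1, which did not pass the test, had an E2F match in the window but not wholly before the start. The same held for Brca1, Brip1, Clspn, Fanci and Rad51ap1, which were down-regulated. For each of the other 5 genes with a match before the start, the match nearest the start is shown with 20 bases on either side. The first base of the match lies 168 bases before the start in Brca2 (chr5:150522433-150522479, plus strand), 208 in Bard1 (chr1:71103154-71103200, minus strand), 129 in Topbp1 (chr9:103305178-103305224, plus strand), 54 in Fancm (chr12:65075529-65075575, plus strand) and 152 in Chek2 (chr5:110839811-110839857, plus strand). In Topbp1 the capitals cover 2 matches that overlap, and the position is that of the one nearer the start. Distances count from the RefSeq start, which can differ from the start in the deposited gene table. That table starts Topbp1 at chr9:103305215 and Bard1 at chr1:71103146, both closer to the match than the RefSeq start.
Brca2: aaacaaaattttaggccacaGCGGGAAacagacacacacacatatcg
Bard1: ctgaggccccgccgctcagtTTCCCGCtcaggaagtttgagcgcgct
Topbp1: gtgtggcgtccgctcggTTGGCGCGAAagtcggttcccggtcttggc
Fancm: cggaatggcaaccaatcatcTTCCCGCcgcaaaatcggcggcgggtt
Chek2: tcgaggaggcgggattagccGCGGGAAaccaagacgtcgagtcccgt
The log2 fold changes of the 6 genes with such a match ran from -0.24 for Chek2 to -1.10 for Mdc1.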

How the data were processed

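Polyadenylated RNA of 4 libraries (2 of 2D, 2 of 3D) was sequenced with a stranded kit. The authors used cutadapt 1.8.3 and Trimmomatic 0.36 for trimming, HISAT2 2.0.5 for stranded alignment to GRCm38, and StringTie 1.3.4 with the Ensembl annotation (release 93) for gene levels. The values used here are the TPM per library that the authors deposited. TPM are relative within a library and keep no depth, and a 0 can be a failed estimate. The table also holds the log2 fold change and p-value of a comparison made by the authors with DESeq2, which were not used.

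The labels give the culture of each library. limma 3.58.1 (R 4.3.3; lmFit, then eBayes with a mean trend and robust) was run on log2(TPM + 1) of the genes whose mean reached 1 TPM. Culture was the single factor, and tests were two-sided with Benjamini-Hochberg adjustment over all genes and a threshold of 0.05. A fold change on this scale understates that of genes with low levels. The script was tested on simulated data. Tables and figures were made with Python 3.11.15, pandas 2.3.3, numpy 2.4.6 and matplotlib 3.10.9.

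Exonic overlaps were taken from GENCODE M21, where all 41 genes were found by identifier, 39 of them at the same position. Coordinates count from 1. Promoters came from RefSeq and were matched by symbol. The members, lists and tests were chosen with earlier results of these data known. The text may name all 41 members, up to 3 genes of each other list with the highest mean TPM and genes that overlap a member, and any other gene was chosen after its values were seen. As alternatives, the pseudocount was set to 0.1 or 5, the filter was dropped or raised to 5 TPM, and the values were median-centred, quantile-normalized or rescaled after removal of mitochondrial genes and the 20 highest genes. A constant prior variance, a replicate block and the omission of each library were also tried. The Hi-C libraries were not analysed here.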

Additional observations from a re-analysis of the deposited data

How the results depend on the processing

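Across 13 alternatives, the number of the 41 genes called ranged from 25 to 29 with all libraries and from 22 to 25 with a library left out, and the lower calls always outnumbered the higher ones. A set chosen after seeing the data was the 29 genes that share no exonic base with another gene of at least 1 TPM. In it, 19 were called, 17 lower and 2 higher, against 27.1% lower and 23.4% higher of all genes tested. The median log2 fold change of the 41 genes was -0.54 with a pseudocount of 0.1 and -0.36 with one of 5, where 1 gene in place of 2 was lower by more than 1. Of 530 recomputed fold changes of the 41 genes, 485 kept their direction and their side of the threshold, 36 lost a call, 4 gained one and 5 changed sign. The changes of sign all came from leaving out a library and concerned genes called in no fit. Atm ranged from -0.050 (without 2D replicate 1) to 0.16, Nbn from -0.094 to 0.037 (without 2D replicate 2, with 0.0013 without 3D replicate 1), and Rbbp8 from -0.048 (without 2D replicate 1, with -0.012 without 3D replicate 1) to 0.049. With a library left out, the lone library was assumed to vary like the other culture. Such fits called 4720 to 5954 of all genes, 21 to 29 of the wider pathway, 4 to 6 of the Fanconi anaemia genes, 1 to 2 of the fork remodelling genes, 1 to 2 of non-homologous end joining and 7 to 10 of base excision repair, with fewer libraries in the fit. Without the filter, 1 gene of non-homologous end joining was called. As a ratio of TPM + 1, the log2 differences were -0.37 for Timeless to Tipin, 0.38 for Brca1 to Bard1 and -1.04 for Fancd2 to Usp1.

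The replicate numbers were not found to pair the libraries (correlation of the deviations of same-numbered libraries -0.05 across 14116 genes). With the replicate number as a block, 24 of the 41 genes were lower and 2 higher, 6248 of all genes were called, and 1 gene of non-homologous end joining was called.

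Groups of 2 libraries and an unknown depth limit the precision, above all for genes of a few TPM such as Fancc and Xrcc3. The length of hydroxyurea treatment and the culture cannot be told apart.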

Other observations

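Several of the 41 genes start close to another gene on the opposite strand, and the neighbours were examined after the data were seen. Within 1000 bases, 17 such pairs with a tested neighbour were found for 16 of the genes. The neighbours were lower in 3D in 8 cases, higher in 2 and not called in 7, and for the 12 down-regulated genes the counts were 7, 2 and 3. Of all genes tested, 27.1% were lower and 23.4% higher. Beside Brca1, Nbr1, which encodes an autophagy receptor, starts 194 bases away and was at 210 and 199 TPM in 2D and at 266 and 378 TPM in 3D (log2 fold change 0.63, limma adjusted p = 0.0362), against -0.41 for Brca1. Beside Chek2, Hscb, for a cochaperone of iron-sulphur cluster assembly, starts 202 bases away and was at 20.9 and 19.6 TPM in 2D and at 25.3 and 25.3 TPM in 3D (0.31, limma adjusted p = 0.0174). Both pairs therefore had called changes in opposite directions on the log2 scale.

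Other neighbours moved the same way as the gene beside them. Emc3, for a subunit of the membrane protein complex of the endoplasmic reticulum, starts 30 bases from Fancd2 and was at 168 and 166 TPM in 2D and at 151 and 152 TPM in 3D (-0.14, limma adjusted p = 0.0313), a smaller change than the -0.85 of Fancd2. Dctn5, for a dynactin subunit, starts 56 bases from Palb2 and was at 87.5 and 89.2 TPM in 2D and at 59.8 and 52.1 TPM in 3D (-0.65, limma adjusted p = 0.00333), beside -0.50 for Palb2. Whether neighbours move together more often than other genes was not tested.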
